A study of Rattus norvegicus with 20 samples.

Results

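Phospholipid synthesis and remodeling enzymes were followed in dorsal root ganglia (DRG) of Sprague-Dawley rats, all females. The study's methods give their age as 8–10 weeks, stated ahead of acclimatization and the diets, and give no age at collection. The 10 genes were Cept1, Chpt1, Pcyt1a, Pcyt1b, Pcyt2, Pemt, Gpat4, Agpat3, Lpin1 and Lpcat3, chosen by symbol out of 39747 genes in the deposited count table. Rats received a soy oil diet (SOD) or a fish oil diet rich in omega-3 fatty acids (FOD), started 4 weeks before surgery. Surgery was chronic constriction injury (CCI), in which loose ligatures are tied around the left sciatic nerve, or a sham exposure without ligatures (CT). The left DRG of 14 rats were sequenced (4 FOD-CCI, 3 FOD-CT, 3 SOD-CCI and 4 SOD-CT), together with the contralateral (right) DRG of 3 SOD-CCI and 3 FOD-CCI rats, which makes 20 libraries. The study places collection 1 week after surgery, whereas the public description has the diets go on for 4 weeks after it. No sham rat has a contralateral library, and each rat stands for 1 replicate.

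Membrane phospholipids are made from a glycerol backbone in the endoplasmic reticulum. GPAT and AGPAT enzymes attach the fatty acids, lipins release the phosphate to give diacylglycerol, and the Kennedy pathway joins diacylglycerol to choline or ethanolamine that the PCYT enzymes have activated. Remodeling enzymes such as LPCAT3 then exchange acyl chains, and this is a step at which polyunsaturated fatty acids enter membranes. Sensory neurons and Schwann cells carry large membrane areas in axons and myelin.

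The promoters of Cept1, Chpt1 and Pcyt2 are printed because the results below turn on these 3 genes. Cept1 and Chpt1 encode related enzymes that catalyze the same last step of phosphatidylcholine synthesis and are compared across libraries below, and Pcyt2 was higher on the injured side in every rat. The sequences are from RefSeq on build GRCr8, 250 bases before to 50 bases after the annotated start, 5′ to 3′ on the strand of the gene, and all 3 genes lie on the minus strand. They span chr2:196723609-196723908 (Cept1), chr7:24802472-24802771 (Chpt1) and chr10:106394419-106394718 (Pcyt2). Capitals mark the GC box GGGCGG and the CCAAT box CCAAT, each searched on both strands, so that CCGCCC and ATTGG are the same motifs read on the other strand.
Cept1: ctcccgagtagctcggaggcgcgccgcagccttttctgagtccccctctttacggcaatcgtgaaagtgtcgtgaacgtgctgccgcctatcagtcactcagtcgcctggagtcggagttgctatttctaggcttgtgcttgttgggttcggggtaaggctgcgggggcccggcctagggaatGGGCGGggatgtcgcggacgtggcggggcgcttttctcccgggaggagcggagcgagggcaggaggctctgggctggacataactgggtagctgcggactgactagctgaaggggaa
Chpt1: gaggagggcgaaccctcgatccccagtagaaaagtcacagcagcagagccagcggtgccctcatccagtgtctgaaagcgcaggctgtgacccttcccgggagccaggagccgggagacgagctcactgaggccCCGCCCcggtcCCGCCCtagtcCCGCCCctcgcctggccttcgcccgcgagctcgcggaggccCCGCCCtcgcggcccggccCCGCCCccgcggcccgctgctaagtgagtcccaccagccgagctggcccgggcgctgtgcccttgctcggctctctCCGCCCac
Pcyt2: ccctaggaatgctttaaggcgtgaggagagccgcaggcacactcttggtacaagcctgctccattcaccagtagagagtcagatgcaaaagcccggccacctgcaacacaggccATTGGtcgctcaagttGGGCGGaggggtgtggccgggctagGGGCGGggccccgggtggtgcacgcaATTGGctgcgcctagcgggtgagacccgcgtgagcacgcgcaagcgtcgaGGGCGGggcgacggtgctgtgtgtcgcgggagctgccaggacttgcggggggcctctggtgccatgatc
Chpt1 held 6 GC boxes, Pcyt2 held 3 and Cept1 held 1, and 33.1% of 33469 promoters of this length held at least 1. The CCAAT box was present 2 times in Pcyt2 and was not matched in Cept1 or Chpt1, against 37.5% of all promoters with a match. An E-box of muscle regulatory factors, CAGCTG, had no match in these 3 windows, and 15.1% of all promoters held it. Of the 10 genes, 9 had an entry in the promoter table. Their windows fell into a CpG-rich set, from 23 CpG in Pcyt2 to 31 in Pcyt1a (Cept1, Chpt1, Pcyt1a, Pcyt2 and Lpcat3), and a CpG-poor set, from 1 in Lpin1 to 4 in Pcyt1b and Pemt (with Agpat3 at 3), where the median of all promoters was 7.

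Library totals ran from 22547190 to 54437581 counts, and several libraries stood apart before any enzyme was considered. In SOD-CT replicate 1, 12 skeletal muscle genes took 11.5% of all counts and 8 neuron markers summed to 6011 CPM (the count scaled to the library total). Neuron markers were lower still, at 3548 CPM, in the contralateral library of FOD-CCI replicate 1, were 9853 CPM in FOD-CT replicate 1 and 16190 CPM in FOD-CCI replicate 1, and ran from 13280 to 20390 CPM in the remaining 16. The library FOD-CT replicate 2 had 2.46% muscle counts. Summed CPM of 8 spinal cord glia genes was 3047 in FOD-CT replicate 1, 2413 in FOD-CCI replicate 1 and 3803 in the contralateral library of that same rat, and at most 67.17 elsewhere. Summed CPM of 7 nerve injury genes, Atf3 among them, was 151.7–322.5 in sham DRG and 600.3–1723 in left DRG of CCI rats, with 1 exception. The library labelled FOD-CCI replicate 1 had 198.8 CPM, within the sham range, so some of the values that rest on it are also given without it. All 8 neuron, 4 satellite glia and 6 Schwann cell markers were above 1 CPM in the median library.

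The enzyme genes were all expressed, and none was called in any comparison by the main test. Between genes, levels were compared as deposited FPKM, which is per gene length. Pcyt2, which activates ethanolamine, had the highest median over the 20 libraries at 38.51 FPKM (29.75 to 57.82). Cept1, whose enzyme makes both phosphatidylcholine and phosphatidylethanolamine, followed at 37.45 FPKM (29.05 to 72.47), and these ranges overlapped almost fully. Gpat4 (28.83), which attaches the first fatty acid, Agpat3 (27.3), which attaches the second, Lpcat3 (21.19) and Pcyt1a (20.86), which activates choline, had middle median FPKM values. The lowest medians were those of Lpin1 (12.71 FPKM), Pcyt1b (10.85), the second choline-activating gene, Chpt1 (9.529), and Pemt (7.395), which methylates phosphatidylethanolamine to phosphatidylcholine. Neighbours in this order overlapped in their ranges throughout. Pemt had at most 252 counts in a library and 0 counts in SOD-CT replicate 1, where a count of 0 allows up to 0.132 CPM.

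**Figure D1:**
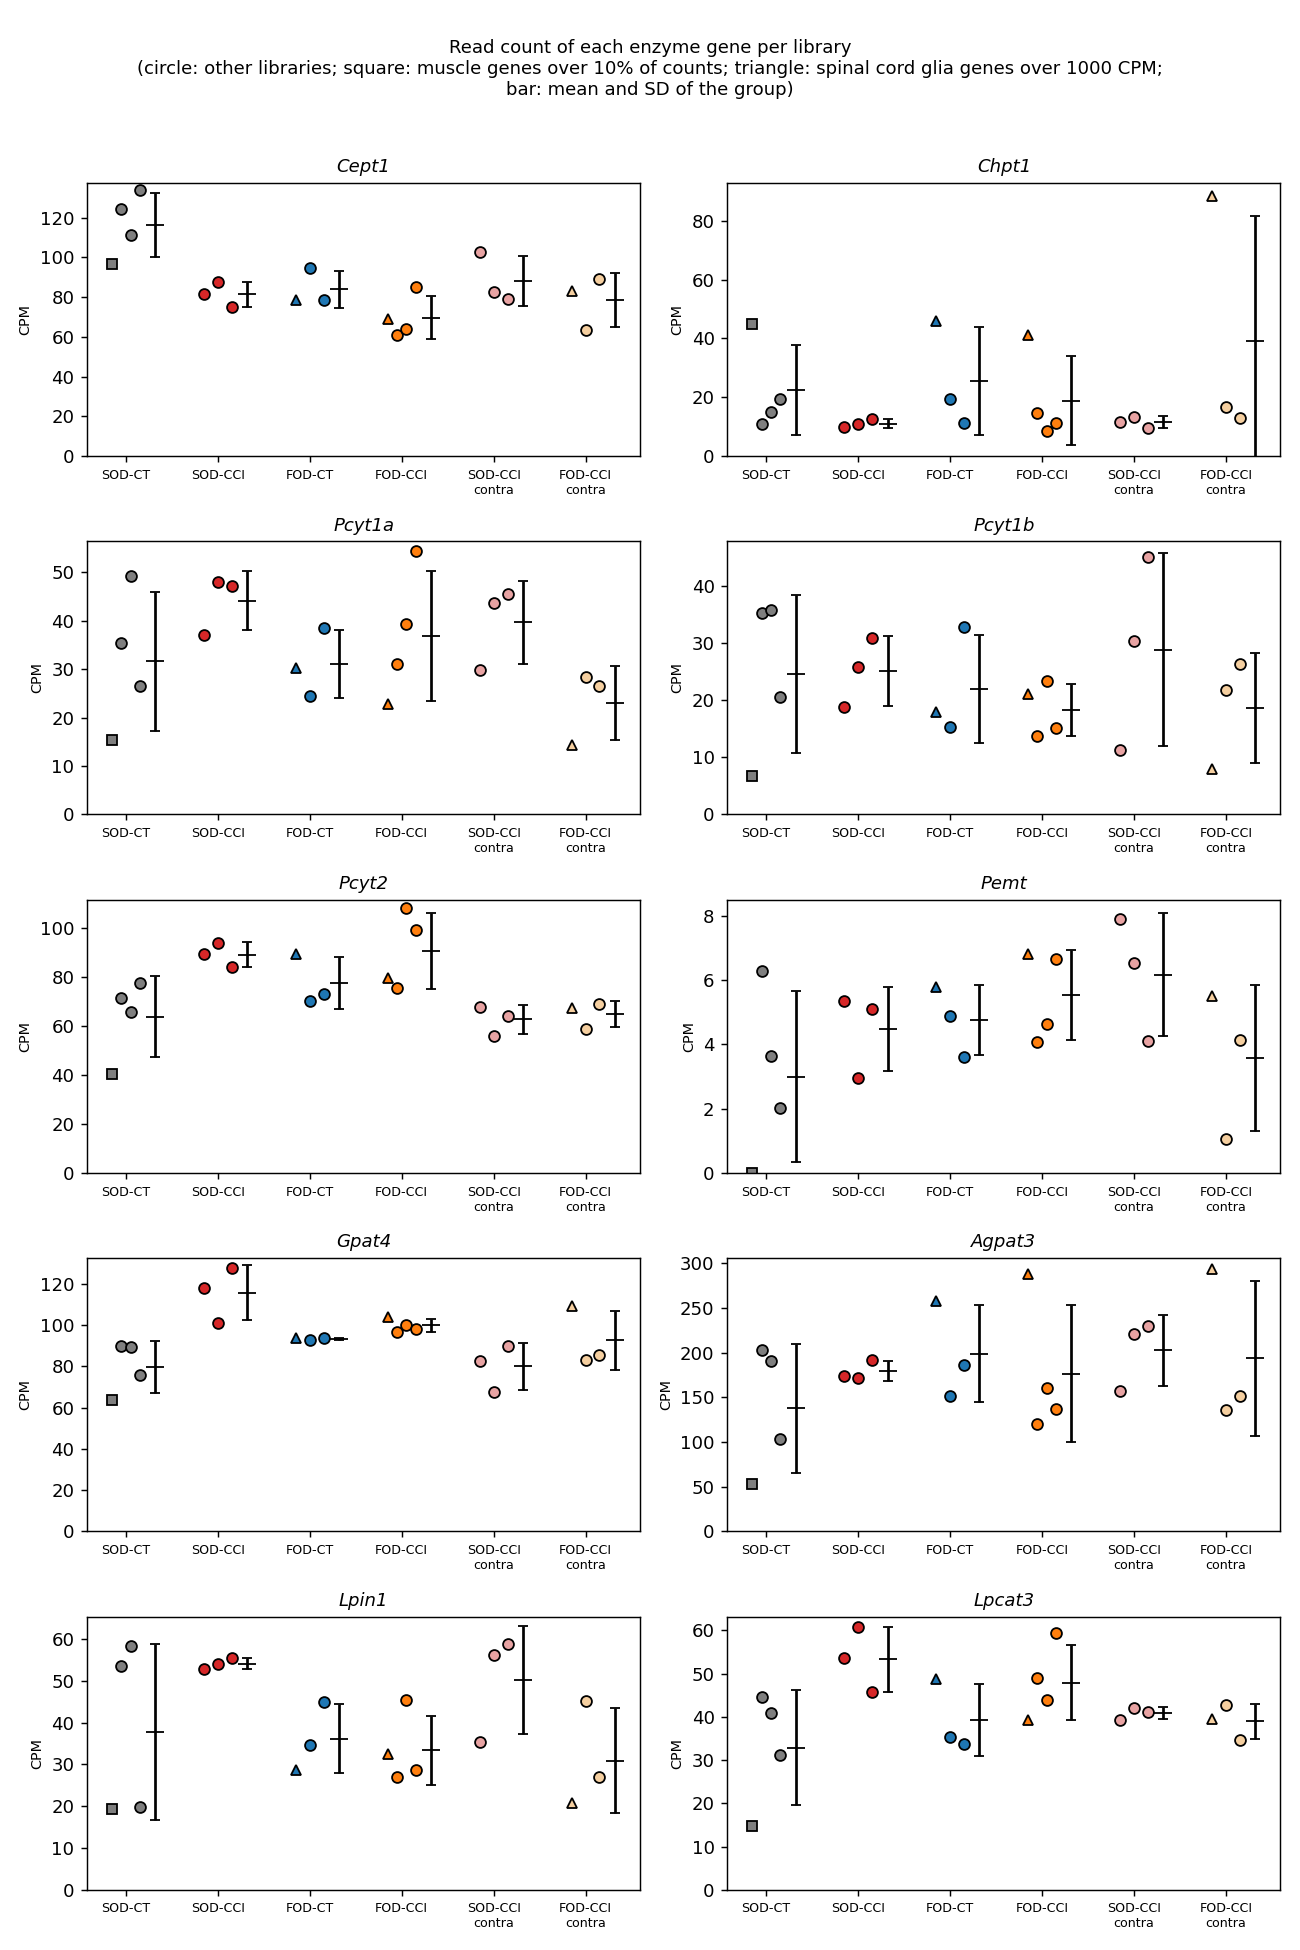
CPM of the 10 genes in each of the 20 libraries (1 point a library, y axis from 0), by group on the x axis, with the mean and SD of each group as bars (an SD below 0 is cut off). Chpt1 is high in 4 libraries, the square (SOD-CT replicate 1, muscle genes 11.5% of counts) and the 3 triangles (spinal cord glia genes over 1000 CPM), and Cept1 is highest in SOD-CT.

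To ask how injury affected these genes on the soy oil diet, SOD-CCI was compared with SOD-CT. Cept1 was lower after injury and Lpcat3 and Gpat4 were higher, each at an unadjusted p under 0.05 only. Cept1 had 96.57, 124.3, 111.1 and 133.7 CPM in SOD-CT replicates 1 to 4 and 81.54, 87.42 and 75.03 CPM in SOD-CCI replicates 1 to 3. Every sham library was above every CCI library, and this held in FPKM as well. Its log2 fold change was −0.71 (SE 0.19, 95% interval −1.13 to −0.29, adjusted p = 0.266, edgeR quasi-likelihood test with Benjamini–Hochberg adjustment over 14484 genes). The DESeq2 Wald test gave −0.74 with an adjusted p of 0.028, and this was the only call of any of the 10 genes under any alternative tried. Lpcat3, which places polyunsaturated chains into lysophospholipids, had 14.74, 44.61, 40.88 and 31.13 CPM in SOD-CT and 53.59, 60.75 and 45.75 CPM in SOD-CCI. The groups did not overlap, and the lowest value by far was in the muscle-rich SOD-CT replicate 1. The log2 fold change of Lpcat3 was 0.59 (SE 0.23, adjusted p = 0.314, edgeR), and 0.41 with an unadjusted p of 0.0633 without that library. Lpcat3 overlaps Emg1 on the opposite strand, and since the use of strand in counting is not given, reads of the pair may not be told apart.

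Gpat4 had 63.57, 89.77, 89.61 and 75.77 CPM in SOD-CT and 118.1, 101.3 and 127.9 CPM in SOD-CCI (log2 fold change 0.36, SE 0.16, adjusted p = 0.339, edgeR). Its groups did not overlap in CPM but did in FPKM, where the muscle-rich library is scaled up. Pcyt2 also overlapped in FPKM but not in CPM, through SOD-CT replicate 4 (43.18 FPKM) against the lowest SOD-CCI library (42.44 FPKM). Its log2 fold change was 0.33 (SE 0.17, adjusted p = 0.409, edgeR). Thus 3 of 10 genes had an unadjusted p under 0.05, where 13.8% of all genes tested did. In CPM 4 of 10 (Cept1, Lpcat3, Gpat4 and Pcyt2) had ranges that did not overlap, beside 17.5% of all genes. In FPKM only Cept1 and Lpcat3 of the 10 had such ranges, beside 2564 of the 14484 genes tested. The share of all genes called in this comparison was 0% by edgeR (2006 genes at an unadjusted p under 0.05), and DESeq2 called 594 genes. The median log2 fold change of the 10 genes was 0.35, with 7 higher and 3 lower, beside −0.01 over all genes. Without SOD-CT replicate 1 these medians were 0.17 and −0.04. In that fit 2 of the 10 genes had an unadjusted p under 0.05, as did 1222 of the 14916 genes tested. Chpt1 had the largest fitted change, −1.42 (SE 0.70, adjusted p = 0.385, edgeR), which became −0.51 without SOD-CT replicate 1. SOD-CT replicate 1 also stood apart from the other SOD-CT libraries in its muscle and neuron markers, and their part in these differences was not tested.

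The same question on the fish oil diet, FOD-CCI against FOD-CT, was asked next. Cept1 had 78.32, 94.54 and 78.69 CPM in FOD-CT and 68.92, 60.89, 63.71 and 84.96 CPM in FOD-CCI, and the groups overlapped (log2 fold change −0.24, SE 0.19, 95% interval −0.65 to 0.17, adjusted p = 1, edgeR). Lpcat3 differed by 0.33 on the log2 scale (95% interval −0.17 to 0.83), Pcyt2 by 0.27 (−0.11 to 0.65) and Gpat4 by 0.13 (−0.21 to 0.47). In CPM, Gpat4 varied little within groups, at 92.9–93.9 in FOD-CT and 96.95–104 in FOD-CCI. Its CPM ranges therefore did not overlap although the difference was small. Its FPKM ranges did overlap, at 26.49–30.68 in FOD-CT and 29.96–32.26 in FOD-CCI. Gpat4 was the only 1 of the 10 genes without overlap in CPM, against 4.59% of all genes. Of the 10 genes, 0 had an unadjusted p under 0.05 (all genes 4.52%, 654 genes), and 0% of genes were called, whereas DESeq2 called 21. The median log2 fold change was 0.03 for the 10 genes and 0.01 for all genes. Same-numbered libraries of the FOD groups deviated together, and a fit of the 7 FOD libraries blocked on that number called 11 genes and 0 of the 10.

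Without FOD-CCI replicate 1, which lacked high injury genes, 43 genes were called in FOD-CCI against FOD-CT and still 0 of the 10. Chpt1 then differed by −1.08 (adjusted p = 0.623, edgeR), Lpcat3 by 0.42 (adjusted p = 0.613) and Pcyt1a by 0.47 (adjusted p = 0.628) on the log2 scale. Leaving out SOD-CT replicate 1 as well gave 602 called genes, none of them among the 10. Chpt1 at −1.08 (adjusted p = 0.225, edgeR) and Lpcat3 at 0.41 (adjusted p = 0.298) then had an unadjusted p under 0.05. So did 2483 of the 15069 genes tested. An interaction term asked whether diet altered the injury effect, and it was called for 0 of 10 genes (0% of all genes, 725 at an unadjusted p under 0.05, and 42 called by DESeq2). For Cept1 it was 0.47 (SE 0.27, 95% interval −0.12 to 1.05, adjusted p = 0.894, edgeR), and for Lpcat3 −0.26 (−0.96 to 0.45). Without FOD-CCI replicate 1 the interaction was 0.47 for Cept1 (SE 0.29) and −0.17 for Lpcat3 (SE 0.33). None of the 10 genes had an unadjusted p under 0.05 for the interaction, against 5.01% of all genes, so the larger SOD changes were not shown to differ from the FOD changes.

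**Figure D2:**
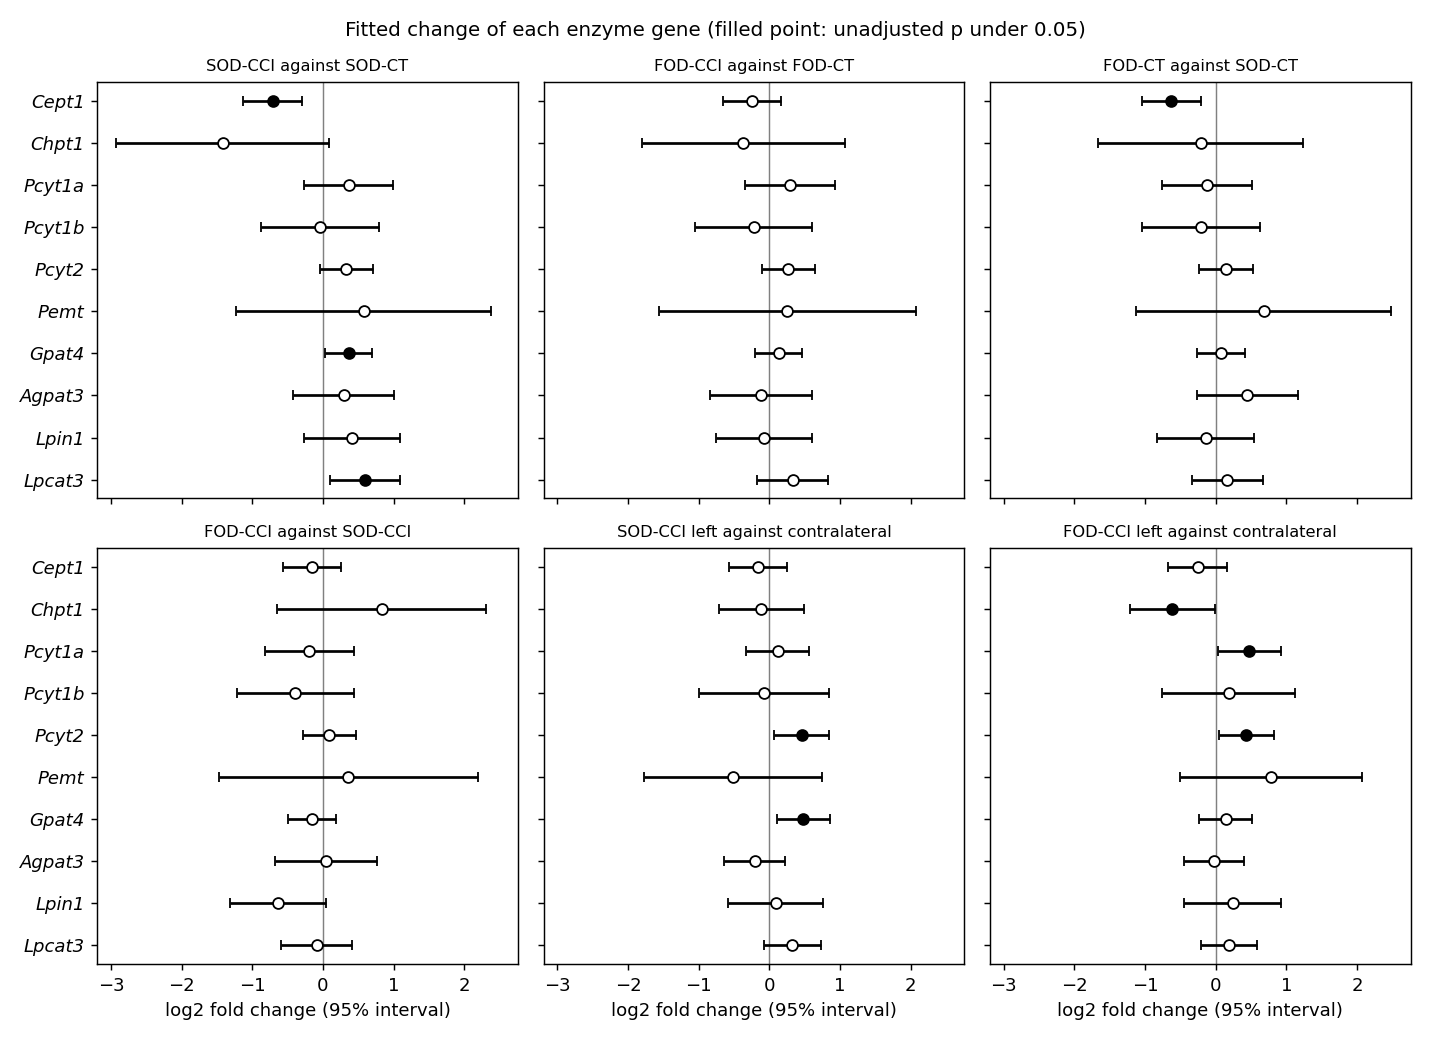
Fitted log2 fold changes (x axis) of the 10 genes (y axis) with 95% intervals in 6 comparisons, where filled points have an unadjusted p under 0.05. Cept1 lies at −0.71 for SOD-CCI against SOD-CT and at −0.63 for FOD-CT against SOD-CT, and Pcyt2 lies at 0.46 and 0.44 in the 2 comparisons of left with contralateral DRG.

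Diet was compared first in sham rats, FOD-CT against SOD-CT. Cept1 was lower on fish oil, with 78.32–94.54 CPM in FOD-CT against 96.57–133.7 CPM in SOD-CT and no overlap between the groups in CPM or FPKM. Its log2 fold change was −0.63 (SE 0.19, 95% interval −1.04 to −0.21, adjusted p = 0.965, edgeR), and −0.55 without SOD-CT replicate 1. The SOD-CT libraries served as control here and for the injury comparison, so the 2 low values of Cept1 are not separate evidence. Cept1 was the only gene of the 10 at an unadjusted p under 0.05 (3.39% of all genes, 491 genes). Cept1 and Gpat4 were the only ones whose CPM ranges did not overlap (3.01% of all genes). In FPKM the ranges of Gpat4 did overlap, at 26.49–30.68 in FOD-CT and 24.72–32.27 in SOD-CT. By edgeR 0% of genes were called, and DESeq2 also called 0. The other genes had log2 fold changes between −0.21 for Chpt1 and 0.68 for Pemt, and without SOD-CT replicate 1, in which Pemt had 0 counts, they were 0.72 for Chpt1 and 0.27 for Pemt.

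In injured DRG, FOD-CCI against SOD-CCI, Lpin1 was the gene with the non-overlapping ranges. Lpin1 encodes a phosphatidic acid phosphatase that yields diacylglycerol. It had 52.86, 53.88 and 55.49 CPM in SOD-CCI and 32.54, 26.93, 45.32 and 28.65 CPM in FOD-CCI. All FOD-CCI libraries were below all SOD-CCI libraries, in FPKM too, and the SOD-CCI values were close to each other. The log2 fold change was −0.63 (SE 0.32, 95% interval −1.31 to 0.04, adjusted p = 0.859, edgeR), and −0.62 without FOD-CCI replicate 1. Lpin1 also varied widely among sham rats on soy oil, with 19.22, 53.58, 58.35 and 19.87 CPM, so the narrow SOD-CCI range was not shared by SOD-CT. It was the only 1 of the 10 genes without overlap, where 15.2% of all genes had none, and 0 of 10 had an unadjusted p under 0.05 (5.4% of all genes, 782 genes). By edgeR 0% of genes were called, and DESeq2 called 2. The intervals of the other genes held 0, among them Cept1 (−0.57 to 0.25), Pcyt2 (−0.29 to 0.47), Gpat4 (−0.49 to 0.19) and Lpcat3 (−0.59 to 0.41). Without FOD-CCI replicate 1 the log2 fold changes were −0.15 for Cept1, 0.15 for Pcyt2, −0.17 for Gpat4 and −0.004 for Lpcat3. Chpt1 was 0.83 (SE 0.69, adjusted p = 0.872, edgeR) with that library and 0.12 without it, and Agpat3 was 0.04 and −0.30.

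Each CCI rat with both DRG gave a comparison of the injured with the contralateral side within the animal, fitted with the rat as a block. Pcyt2 was higher on the injured side in 6 of 6 rats. In SOD-CCI rats 1 to 3 it had 89.35, 94.07 and 84.08 CPM on the left and 67.84, 56.07 and 64.23 CPM on the right, and in FOD-CCI rats 1 to 3 it had 79.78, 75.49 and 108.2 CPM on the left and 67.24, 58.83 and 68.87 CPM on the right. Every left value was above every right value, and how many of all genes show such a gap was not counted. The log2 fold change was 0.46 in SOD-CCI (SE 0.17, adjusted p = 0.489, edgeR) and 0.44 in FOD-CCI (SE 0.17, adjusted p = 0.659), and 0.50 (adjusted p = 0.351) in FOD-CCI without rat 1. Pcyt1a was also higher on the left in 6 of 6 rats, by 0.05 to 0.68 on the log2 CPM scale. Of all genes tested, 5.16% were higher on the left in all 6 rats, and of the 10 genes 2 were. The change of Pcyt2 did not differ between diets by more than its error (−0.03, 95% interval −0.57 to 0.52, and 0.043 with an SE of 0.26 without FOD-CCI rat 1).

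**Figure D3:**
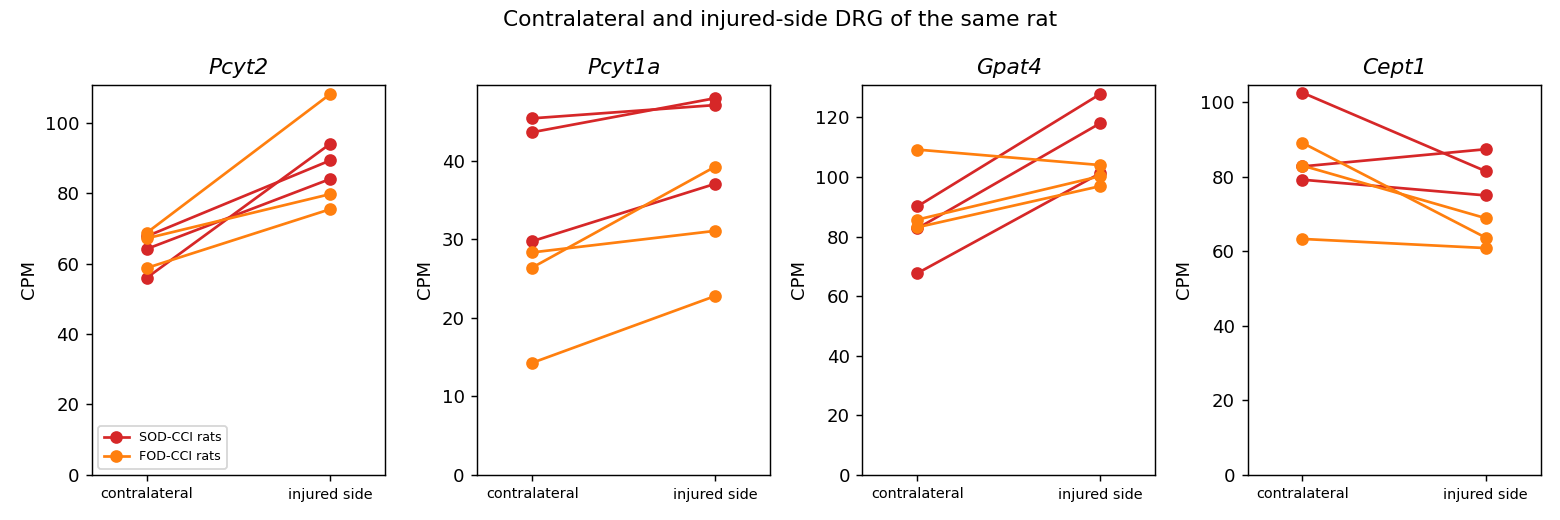
CPM (y axis, from 0) of Pcyt2, Pcyt1a, Gpat4 and Cept1 in the contralateral and the injured-side DRG (x axis), with a line for each of 6 CCI rats. Pcyt2 and Pcyt1a are higher on the injured side in 6 of 6 rats, and Gpat4 in 5 of 6, whereas Cept1 is lower there in 5 of 6.

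Gpat4 was higher on the left by 0.51, 0.58 and 0.51 in log2 CPM in the 3 SOD-CCI rats (fitted 0.48, SE 0.17, adjusted p = 0.458, edgeR). In FOD-CCI rats 1 to 3 the differences were −0.07, 0.22 and 0.23. The left library of FOD-CCI rat 1 is the one with injury genes within the sham range. Cept1, low in SOD-CCI against sham, was −0.16 (SE 0.18) between the sides of SOD-CCI rats, since its contralateral values of 102.6, 82.81 and 79.24 CPM lay mostly below the sham values too. At an unadjusted p under 0.05 were 2 of 10 genes in SOD-CCI (Gpat4 and Pcyt2; all genes 8.48%) and 3 of 10 in FOD-CCI (Pcyt2, Pcyt1a and Chpt1; all genes 6.96%). Without FOD-CCI rat 1 only Pcyt2 was left of these 3, and 1793 of the 14992 genes tested were then at that p. Calls covered 0.131% of all genes in SOD-CCI (19 genes), 0.0137% in FOD-CCI (2 genes) and 0% for the difference between diets, and held 0 of the 10 genes. At an unadjusted p under 0.05 that difference covered 2.91% of all genes (424 genes) and 0 of the 10, and DESeq2 called 472, 264 and 60 genes in the 3 comparisons, again with 0 of the 10.

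Chpt1, which makes phosphatidylcholine in the Golgi, had the widest spread among the 9 genes with counts in every library, and its high values lay in 4 libraries of 4 groups. It had 44.84 CPM in the muscle-rich SOD-CT replicate 1, and 46.01, 41.1 and 88.35 CPM in FOD-CT replicate 1, FOD-CCI replicate 1 and the contralateral library of FOD-CCI replicate 1, the 3 libraries with spinal cord glia genes. The other 16 libraries held 8.524–19.48 CPM (median 12.17), and the next highest were FOD-CT replicate 2 (19.48 CPM, muscle 2.46%) and SOD-CT replicate 4 (19.29 CPM, muscle 0.633%). FOD-CCI contralateral replicate 3 had more muscle counts than the latter (0.856%) and 12.87 CPM of Chpt1. Cept1, in FPKM, was also highest in SOD-CT replicate 1 (72.47), whereas in CPM this library was the lowest of SOD-CT. With totals adjusted by TMM, the kind of normalization used in the test, Cept1 was again highest there (148.4 CPM). In the 3 spinal cord glia libraries Cept1 had 78.32, 68.92 and 83.03 CPM without that adjustment. Agpat3 was highest in the same 3 spinal cord glia libraries (258, 288.2 and 293.5 CPM, against 103.2–229.2 CPM in those 16) and lowest in SOD-CT replicate 1 (52.74 CPM). That low value was not particular to Agpat3, since Pcyt2, Gpat4, Lpcat3, Lpin1, Pcyt1b and Pemt also had their lowest CPM in SOD-CT replicate 1. Of the spinal cord glia list, 3 of 8 genes exceeded 1 CPM in the median library. The part of other tissue in these values was not tested, and in bulk RNA more cells of a type and more RNA per cell cannot be told apart. Chpt1 overlaps Sycp3 on the opposite strand, whose counts were 235, 215 and 397 in the 3 spinal cord glia libraries and 61 in SOD-CT replicate 1. These were 16.3%, 19.5%, 19.9% and 5.97% of the Chpt1 counts there. In the other libraries the share ran from 0% to 40.9% (FOD-CT replicate 3).

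**Figure D4:**
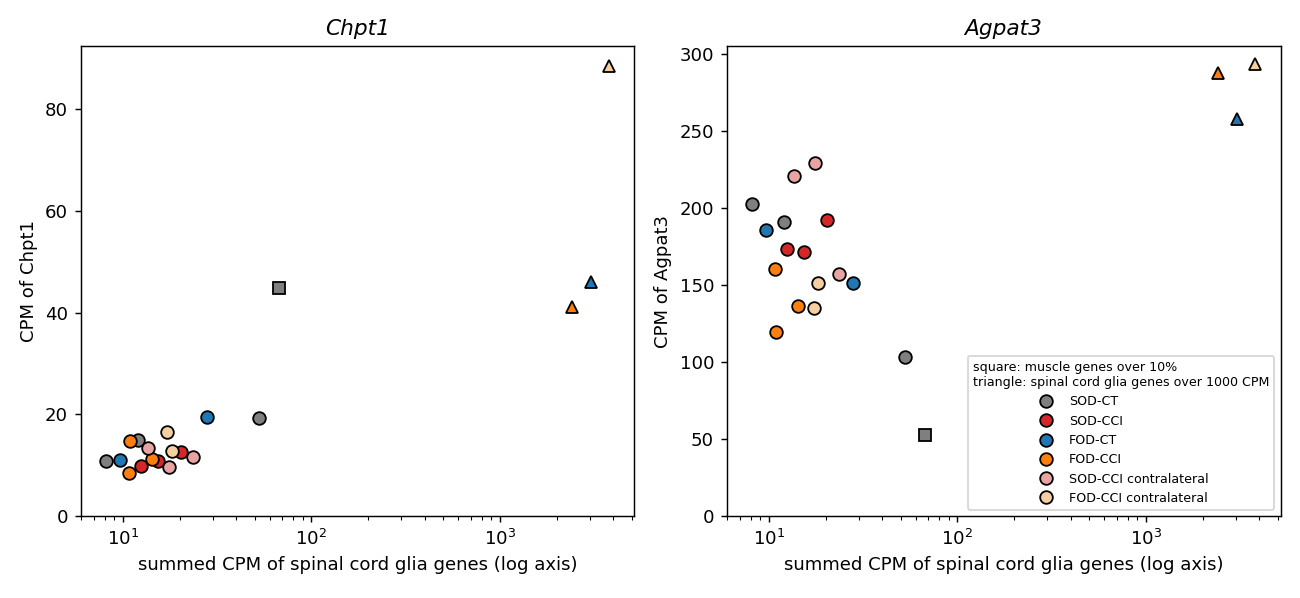
CPM of Chpt1 (left) and Agpat3 (right) against the summed CPM of 8 spinal cord glia genes (log x axis) in the 20 libraries, colored by group. The 3 triangles on the right of each panel are the highest libraries for Agpat3 (258 to 293.5 CPM), and Chpt1 is 41.1 to 88.35 CPM there, with the square (SOD-CT replicate 1) at 44.84 CPM.

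Contralateral DRG were compared between diets as a check of diet away from the ligated nerve. Chpt1 was higher in FOD-CCI (88.35, 16.6 and 12.87 CPM) than in SOD-CCI contralateral DRG (11.73, 13.4 and 9.639 CPM), with a log2 fold change of 1.70 (SE 0.66, adjusted p = 0.521, edgeR) that was 0.37 without the spinal cord glia library. Pcyt1a was lower, with 14.28, 28.35 and 26.42 CPM against 29.78, 43.67 and 45.44 CPM and no overlap (log2 fold change −0.78, SE 0.35, adjusted p = 0.536, edgeR). Its lowest value was in the spinal cord glia library, and without it the log2 fold change was −0.51 (SE 0.27, adjusted p = 0.531, edgeR). Chpt1 was the only 1 of the 10 genes at an unadjusted p under 0.05 (9.51% of 13590 genes, 1292 genes), and Pcyt1a the only 1 without overlap (17.3% of genes). By edgeR 0% were called and DESeq2 called 202 genes, 0 of them among the 10.

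Of 39 other genes of phospholipid synthesis, 38 could be tested in left DRG and 36 in the fits with contralateral DRG. By edgeR 0 were called in any comparison, and the genes below had only an unadjusted p under 0.05, with the share of all genes at that p beside each count. For SOD-CCI against SOD-CT these were 4 of 38 (all genes 13.8%). The log2 fold changes were 0.53 for Pgs1, an enzyme of cardiolipin synthesis, 0.71 for Mboat7, which remodels phosphatidylinositol, 0.43 for Ptdss1, which makes phosphatidylserine, and −0.64 for Ptpmt1, a mitochondrial phosphatase of the cardiolipin route. Their adjusted p ran from 0.281 to 0.349 (edgeR). For FOD-CCI against FOD-CT they were 2 of 38 (all genes 4.52%), Agpat2 at 1.67, an acyltransferase of the AGPAT family, and Pgs1 at 0.54, with an adjusted p of 1 each by edgeR. Between diets, 1 of 38 was found in injured DRG (all genes 5.4%), Slc44a2, a choline transporter-like gene, at −0.52 (adjusted p = 0.859, edgeR). In sham DRG 1 of 38 was found (all genes 3.39%), Tamm41, a mitochondrial enzyme of the cardiolipin route, at −0.64 (adjusted p = 0.965, edgeR). Between the sides, 0 of 36 were found in SOD-CCI (all genes 8.48%) and 2 of 36 in FOD-CCI (all genes 6.96%), the choline kinase Chka at 0.48 (adjusted p = 0.664, edgeR) and Pgs1 at 0.59 (adjusted p = 0.683). In contralateral DRG 4 of 36 were found for FOD against SOD (all genes 9.51%), Ptpmt1 at 0.63, Lpcat4 at −0.74, Ptdss1 at −0.66 and Mboat1 at −1.39, with adjusted p of 0.521 to 0.522 (edgeR).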

How the data were processed

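RNA was purified by poly-A selection, and the authors used fastp for trimming, HISAT2 for alignment and featureCounts 1.5.0-p3 for counting (from the submitters' processing notes). The deposited counts are raw whole numbers per gene, not scaled. The authors also deposited FPKM values, used here only to compare levels between genes and to check overlap of groups. The genome build and the use of strand are not given in the sources used here, so no coordinates of the files are printed. Promoter sequences were taken from RefSeq.

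Counts were analysed in R 4.3.3 with edgeR 4.0.16 (TMM, two-sided quasi-likelihood test, Benjamini–Hochberg) on genes with at least 10 counts in 90% of libraries, and with DESeq2 1.42.0 as an alternative. The 14 left libraries were fitted with 4 group means, the 12 libraries of 6 rats with the rat as a block, and the 6 contralateral libraries alone. A gene was called where its fold change reached 1.2 and its adjusted p did not exceed 0.1. The spread between rats, not counting error, sets the precision at these totals. Left and right DRG of a rat deviated together (r of 0.127 to 0.404 in 6 of 6 rats), and libraries of the same number did so in FOD-CT and FOD-CCI (0.411, 0.225 and 0.177) but not generally (5 of 19 pairs above 0.1). All 10 genes are named. The 10 genes and all lists were chosen with earlier results of these data known. The code of the fits was run on simulated counts with less spread than these data, so that run does not measure their power here. Figures were drawn with matplotlib 3.10.9.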

Additional observations from a re-analysis of the deposited data

Results flagged for a closer look

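No enzyme gene had a library that stood apart in the groups of 4 (SOD-CT and FOD-CCI) by Dixon's test at 95%, in 20 such tests of CPM. Of 22 tests on library totals and summed marker CPM, 6 passed, where chance alone flags about 1 in 20 groups. The library total of FOD-CCI replicate 3 was 54437581 counts. Summed CPM of the muscle genes was 115100 in SOD-CT replicate 1, the library with the highest Chpt1 of its group, and 239 in FOD-CCI replicate 2. Summed CPM of the spinal cord glia genes was 2413 in FOD-CCI replicate 1, which had the highest Chpt1 and Agpat3 of its group. Summed CPM of the red cell genes was 21410 in FOD-CCI replicate 2 and 8828 in SOD-CT replicate 4. The part of these differences in the values of the 10 genes was not tested.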

How the results depend on the processing

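With DESeq2 594 genes were called for SOD-CCI against SOD-CT (1 of the 10, Cept1), 21 for FOD-CCI against FOD-CT, 2 for FOD-CCI against SOD-CCI, 42 for the interaction, 472 and 264 for the left against the contralateral side in SOD-CCI and FOD-CCI (with 1 of the 10 at an unadjusted p under 0.05 in FOD-CCI), 60 for their difference, and 202 between contralateral DRG. In the DESeq2 fit of the sides in FOD-CCI, 1436 of the 14549 genes tested were at that p. Without a filter the side comparisons called 220, 61 and 3 genes. Then 1 of the 10 had an unadjusted p under 0.05 in SOD-CCI (1544 of 27477 genes). Between contralateral DRG 2 of the 10 did (1575 of 24349 genes). With a replicate block 1 gene was called for SOD-CCI against SOD-CT, and Lpin1 was 0.11 for FOD-CCI against FOD-CT. Between contralateral DRG 2 of the 10 then had an unadjusted p under 0.05, as did 877 of the 13590 genes tested. The blocked fit of the 7 FOD libraries called 11 genes. The block changed no call of the 10 genes. With no replicate block the side comparisons called 0 and 0 genes. In FOD-CCI 1 of the 10 then had an unadjusted p under 0.05, as did 621 of the 14549 genes tested. Fitting only the 2 groups called 0 genes for FOD-CCI against SOD-CCI. In that fit 1 of the 10 had an unadjusted p under 0.05, as did 1784 of the 14706 genes tested.

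Leaving out 1 library (in the side fits, 1 rat) at a time gave 0 to 47 called genes for SOD-CCI against SOD-CT, the highest without FOD-CCI replicate 1, and 1 to 4 of the 10 at an unadjusted p under 0.05. The 4 of the 10 came without FOD-CCI replicate 1, where 2143 of the 14620 genes tested were at that p. Leaving out 1 library gave 0 to 43 called genes for FOD-CCI against FOD-CT, the highest without FOD-CCI replicate 1 as well. In the side fits it gave 0 to 471 called genes for SOD-CCI and 0 to 137 for FOD-CCI, both highest without FOD-CCI replicate 1, with 0 to 2 and 0 to 3 of the 10 at an unadjusted p under 0.05. Side fits with 2 in SOD-CCI had from 557 of 14762 genes at that p (without SOD-CCI replicate 1) to 1975 of 14992 (without FOD-CCI replicate 1). The 3 in FOD-CCI came without FOD-CCI replicate 2 (1552 of 14857 genes). The count of the 10 at that p was 0 to 1 for FOD-CCI against SOD-CCI and for the interaction. The former was 1 without SOD-CT replicate 4 (766 of 14628 genes) or FOD-CCI replicate 3 (1038 of 14492). The latter was 1 without FOD-CT replicate 2 (817 of 14603). Between contralateral DRG 0 to 17 genes were called, with 17 without FOD-CCI contralateral replicate 1, and 0 to 3 of the 10 were at that p. The 3 came without FOD-CCI contralateral replicate 2, where 1525 of the 13790 genes tested were at that p. Without the 2 left libraries high in spinal cord genes, 87 genes were called for SOD-CCI against SOD-CT, Agpat3 was −0.30 for FOD-CCI against SOD-CCI, Lpin1 0.039 for FOD-CT against SOD-CT, and Pcyt1a 0.036 and Pcyt2 0.057 for the interaction. Without the 2 libraries with most muscle transcripts, Chpt1 was 0.82 for FOD-CT against SOD-CT, and Pemt was 0.17 for the interaction. For the interaction 1 of the 10 then had an unadjusted p under 0.05, as did 723 of the 15081 genes tested. Chosen after seeing the data, leaving out both SOD-CT replicate 1 and FOD-CCI replicate 1 gave 70 called genes in SOD and 602 in FOD. In FOD 2 of the 10 had an unadjusted p under 0.05, as did 2483 of the 15069 genes tested. Agpat3 was then −0.29 for FOD-CCI against SOD-CCI, Chpt1 0.72 for FOD-CT against SOD-CT, and the interaction was −0.59 for Chpt1, 0.23 for Pcyt1a, 0.010 for Pcyt1b and 0.048 for Pcyt2. The cause was not tested for any of these.

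Some log2 fold changes took both signs when 1 library was left out, and their ranges follow. For SOD-CCI against SOD-CT, Pcyt1b ran from −0.32 to 0.15. For FOD-CCI against FOD-CT, Agpat3 ran from −0.46 to 0.055, Chpt1 from −1.08 to 0.27, Lpin1 from −0.27 to 0.087 and Pcyt1b from −0.38 to 0.17. For FOD-CCI against SOD-CCI, Agpat3 ran from −0.30 to 0.18 and Pcyt2 from −0.008 to 0.16. For FOD-CT against SOD-CT, Chpt1 ran from −0.85 to 0.72, Lpin1 from −0.35 to 0.066 and Pcyt1a from −0.29 to 0.092. For the interaction, Pcyt1a ran from −0.31 to 0.10, Pcyt1b from −0.37 to 0.21, Pcyt2 from −0.14 to 0.014 and Pemt from −0.96 to 0.092. Between the sides in SOD-CCI, Chpt1 ran from −0.38 to 0.024, Lpin1 from −0.12 to 0.20 and Pcyt1b from −0.44 to 0.16. Between the sides in FOD-CCI, Agpat3 ran from −0.053 to 0.045 (0.022 without a filter), Lpin1 from −0.004 to 0.72 and Pcyt1b from −0.42 to 0.62. For the difference of side changes, Cept1 ran from −0.20 to 0.046, Lpin1 from −0.098 to 0.65, Pcyt1b from −0.34 to 0.72 and Pcyt2 from −0.11 to 0.097 (0.048 without a filter). Between contralateral DRG, Agpat3 ran from −0.47 to 0.082 and Pcyt2 from −0.049 to 0.098. Cept1 kept its direction in both comparisons with SOD-CT under every alternative, from −0.79 to −0.64 for SOD-CCI and from −0.80 to −0.53 for FOD-CT. Pemt, with at most 252 counts in a library, had the largest standard error of the 10 genes for SOD-CCI against SOD-CT (0.84).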
